A study of Homo sapiens with 4 samples.

Results

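The ribosomal RNA genes (rDNA) of human cells lie on the short arms of the acrocentric chromosomes 13, 14, 15, 21 and 22. Where chromosomes are not rearranged, the long arms of these 5 are therefore joined in cis to rDNA clusters. Every other chromosome can then meet rDNA only in trans. The clusters form the nucleoli, and chromatin near the nucleolar surface is known to be largely late replicating and poor in transcription. 4C reads out what lies near a chosen viewpoint in the nucleus: cross-linked chromatin is digested and religated, and inverse PCR recovers the sequences joined to the viewpoint. Here the viewpoint lay in rDNA and EcoRI was the enzyme.

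Contacts were mapped in K562, an established human erythroleukemia line, in 2 untreated libraries and in 2 libraries of cells kept with 50 µM hemin for 108 h, which induces erythroid differentiation. A contact region is a stretch of hg38 covered by reads. Regions were placed on a long arm when their midpoint lay past 19000000 on chromosome 13, 20000000 on chromosome 14, 22000000 on chromosome 15, 14000000 on chromosome 21 or 23300000 on chromosome 22. By this rule 26110 of 197703 regions lay on the long arms. They numbered 6483 of 50751 and 6481 of 50221 in untreated replicates 1 and 2, and 6384 of 47042 and 6762 of 49689 in hemin replicates 1 and 2. Distances below are counted from these positions and not from an annotated centromere. Past the position on chromosome 22 lie 5818 of the 9544 EcoRI sites of that chromosome. Values of 22q therefore cover only that part, and its distances do not start at the short arm.

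Chromosome 21 from 8200000 to 8500000, which holds the viewpoint, took 61.8% to 62.1% of the reads of each library and was left out of all shares. That left 12131859 and 12870691 reads without hemin and 7406158 and 7847713 with it, so the hemin libraries were the shallower ones. Median reads per long-arm region were 42 and 42 without hemin and 28 and 27 with it. On the autosomes without rDNA (1 to 12 and 16 to 20) the median was 13 to 15. Between 54.2% and 57.2% of the long-arm regions held an EcoRI site within 100 bases, and between 51.1% and 52.4% were repeat-masked over more than 50% of their length. The replicates of a group are described as biological pairs in the methods of the study, and p-values measure only the spread between these libraries. How far the replicates of a group were prepared apart is not stated. A difference of preparation between the groups cannot be told apart from hemin here, for any fold or p-value below.

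The strongest regions of the long arms are described first, with 2 kinds of sequence that recurred among them. The first kind is a run of 84 bases that 3 of the 5 strongest regions present in all 4 libraries have in common. These 3 regions lie in an intron of NAA16, in an intron of TNRC6B and outside annotated genes on chromosome 22.

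All 3 regions were repeat-masked over their whole length, and none held an EcoRI site. The run of 84 bases occurred exactly 6 times in hg38, and each of the 6 places was a contact region in every library. The 6 places held almost the same number of reads, from 25491 to 26783 in untreated replicate 1 and up to 3957 in hemin replicate 1. Reads of this sequence could not be placed at 1 of its copies, and its values are therefore given apart from those of the long arms where they matter.

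The second kind is sequence that occurs once in hg38 and has an EcoRI site at or next to one end. The lines below give the plus strand of hg38, and the capitals mark the EcoRI site. A region is labelled exon where any of its bases overlaps an exon. They are the strongest hemin region of 13q, the strongest regions of 14q and 15q in each group, and an ERG region. The ERG region was among the 5 strongest of those present in all 4 libraries. The strongest 21q regions, in TTC3 (untreated) and CLDN14 (hemin), also occur once but are not printed. In TTC3 the EcoRI site lay 2 bases outside the region, and in CLDN14 it lay away from both ends.

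no gene, hemin only, chr13:90939232-90939473: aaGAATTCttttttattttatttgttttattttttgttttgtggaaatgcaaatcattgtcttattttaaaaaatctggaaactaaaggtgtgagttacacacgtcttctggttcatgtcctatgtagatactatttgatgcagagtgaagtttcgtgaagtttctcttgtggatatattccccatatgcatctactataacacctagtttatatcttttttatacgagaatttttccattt
ADAM21 intron, higher in untreated, chr14:70447349-70447503: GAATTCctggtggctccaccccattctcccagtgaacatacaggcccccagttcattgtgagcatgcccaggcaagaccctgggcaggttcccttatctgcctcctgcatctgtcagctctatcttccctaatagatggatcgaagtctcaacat
KCNH5 intron, hemin only, chr14:62922567-62922609: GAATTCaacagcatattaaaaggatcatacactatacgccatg
no gene, untreated only, chr15:85990092-85990133: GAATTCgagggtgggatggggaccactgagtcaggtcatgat
TLN2 exon, hemin only, chr15:62712005-62712215: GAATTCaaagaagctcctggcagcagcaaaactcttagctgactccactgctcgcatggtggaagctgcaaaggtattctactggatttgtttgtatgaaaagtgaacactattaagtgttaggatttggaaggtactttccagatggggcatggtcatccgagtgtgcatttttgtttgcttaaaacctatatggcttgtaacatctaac
ERG intron, all libraries, chr21:38579005-38579124: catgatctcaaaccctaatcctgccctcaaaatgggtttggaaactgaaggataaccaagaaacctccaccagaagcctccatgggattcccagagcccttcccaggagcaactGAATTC

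The long arms as a whole carried nearly equal shares of the reads in untreated and hemin cells. Of the reads outside the viewpoint window they took 11.5% and 11.4% without hemin and 11.5% and 11.6% with it. The groups overlapped, with means of 11.49% ± 0.075 and 11.53% ± 0.091 (SD, n = 2 each, two-sided exact permutation p = 0.667). With 2 libraries against 2 this test cannot give a p under 0.333. Counted as regions, the share was 12.9% ± 0.095 in untreated and 13.6% ± 0.028 in hemin libraries (exact permutation p = 0.333). With only regions of at least 10 reads, the difference was -0.632 percentage points, lower after hemin.

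The single arms differed between groups in opposite directions. Chromosome 13 took 1.77% and 1.77% of the reads in untreated libraries and 2.26% and 2.27% in hemin libraries. Chromosome 14 took 1.62% and 1.61%, and then 1.81% and 1.84%. On chromosome 22 the share was 1.86% and 1.84% in untreated libraries and 1.34% and 1.37% after hemin. The shares of chromosome 15 (3.35% ± 0.019 and 3.23% ± 0.018) and chromosome 21 (2.90% ± 0.036 and 2.86% ± 0.017) were a little lower after hemin. In each of the 5 arms the groups did not overlap, and each exact permutation p was the smallest possible, 0.333 before and after Benjamini-Hochberg adjustment over the 5 arms.

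The shared repeat sequence entered these values. It held 23.2% and 21.9% of the chromosome 22 reads in untreated libraries and 7.73% and 8.07% in hemin libraries. Without it the chromosome 22 share was 1.45% and 1.46% in untreated libraries and 1.24% and 1.27% in hemin libraries, so the difference was -0.201 percentage points in place of -0.498. On chromosome 13 the difference grew from 0.497 to 0.636 percentage points. Without the 10 long-arm regions with the most reads, the chromosome 15 share was 0.0593 percentage points higher after hemin in place of lower.

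**Figure D1:**
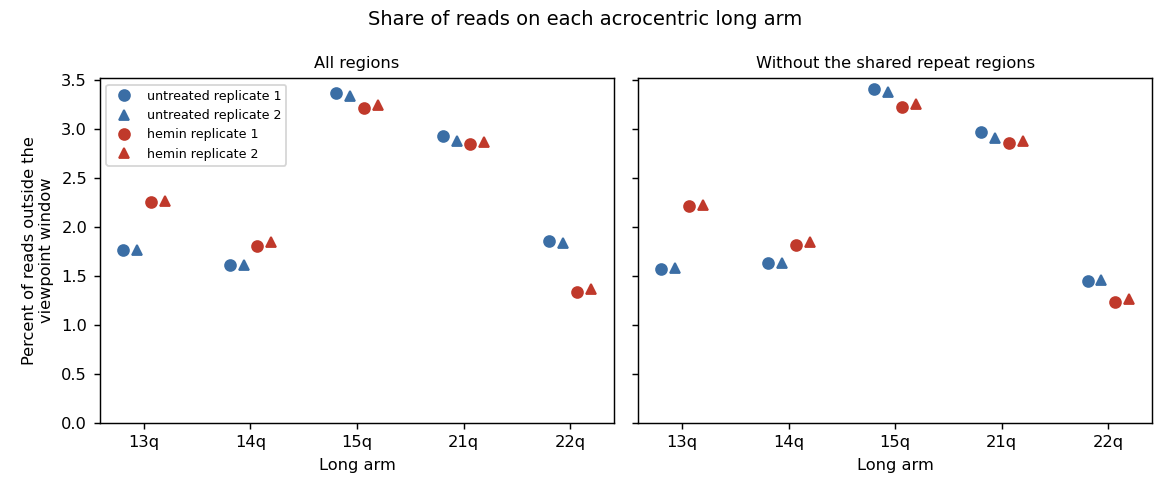
Share of the reads outside the viewpoint window (percent, y axis) on each long arm, with 1 symbol per library, for all regions on the left and without the regions of the shared repeat sequence on the right. The hemin libraries lay above the untreated ones on 13q and 14q and below them on 22q in both plots, and the gap on 22q was narrower on the right.

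The arms differed far more from one another than the groups did. The density of contact regions, per 1000 EcoRI sites, was 172.9 on the long arm of chromosome 21, 134.3 on 22, 93.1 on 15, 46.6 on 14 and 41.5 on 13 (means of 4 libraries). The autosomes without rDNA had 52.4 together. They were taken whole, with both arms and the flanks of the centromere, while the long arms start past the positions given above. The ranks and ratios below thus compare unlike parts of chromosomes. Among them the density ran from 33.2 on chromosome 3 to 102.8 on chromosome 18. The arms of 21 and 22 were thus denser than all 17 of these chromosomes, 15q was less dense than 1 of them, and 14q and 13q were less dense than 10 and 12 of them.

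Set against the autosomes without rDNA in the same library, the density was 3.30 times as high on 21q, 2.54 times on 22q and 1.78 times on 15q. It was higher in 4 of 4 libraries for each of these arms. On 13q the ratio was 0.788 and on 14q 0.890, lower in 4 of 4 libraries. For the 5 arms together the ratio was 1.44. Each of these ratios reached p = 0.125, the smallest value that an exact sign-flip permutation over 4 libraries allows. With other autosomes of the same GC content as the reference, the ratios were 3.65, 2.56, 1.73, 0.909 and 0.862 for 21q, 22q, 15q, 14q and 13q. When only regions repeat-masked over at most 50% of their length were used, the log2 ratios of 13q and 14q turned to 0.04 and 0.15. The log2 ratio of 14q also turned to 0.08 with regions of at least 10 reads. K562 carries amplified and lost segments, copy number was not measured in these files, and copy number and contact density cannot be told apart here. Chromosome rearrangements were not measured either, so which long-arm copies are joined to rDNA in K562 is not known here.

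**Figure D2:**
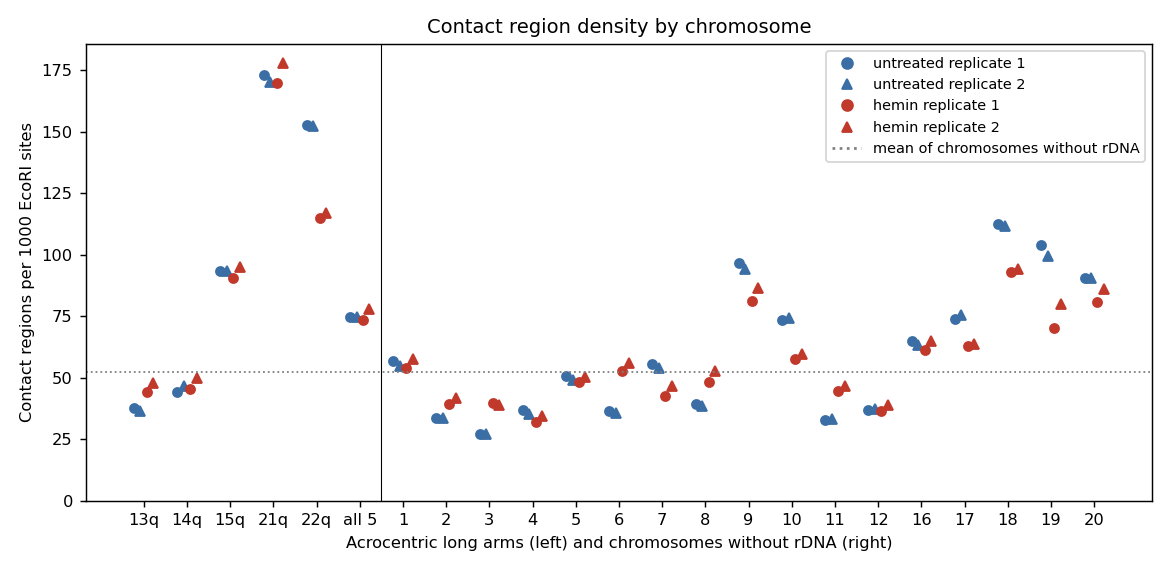
Contact regions per 1000 EcoRI sites (y axis) on each long arm, on all 5 together and on each autosome without rDNA (x axis), with 1 symbol per library. 21q and 22q stood above every chromosome without rDNA in the mean of the libraries, while 13q and 14q lay below the dotted line at 52.4.

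Between groups, the density on 22q was 153.0 and 152.3 in untreated libraries and 114.8 and 117.2 in hemin libraries. On 13q it was 37.5 and 36.5, and then 44.3 and 47.7. The groups did not overlap on either arm (exact permutation p = 0.333). On 14q, 15q and 21q they overlapped. Each region counts once here, and 2 of the 22q regions held the shared repeat sequence, so the lower density on 22q did not rest on it. Chromosomes without rDNA also differed between groups, among them chromosome 3 with 27.1 and 39.3 and chromosome 19 with 101.8 and 75.1 (means of untreated and hemin libraries). Whether 13q and 22q differed more than such chromosomes was not tested.

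Contact density did not change in a common way with distance past the positions that bound the arms. On 15q it was highest near the boundary. Within 2 Mb of the boundary it held 193.8 and 218.1 regions per 1000 EcoRI sites in untreated libraries and 138.8 and 160.8 in hemin libraries, and beyond 40 Mb it held 77.3 to 83.1 in all 4. The density within 10 Mb was 1.82 times that beyond 10 Mb on 15q. The untreated mean of this ratio was 2.05 and the hemin mean 1.61, without overlap of the groups (exact permutation p = 0.333).

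On 21q the order was the opposite. The density was 142.9 to 160.3 within 2 Mb and 72.9 to 93.1 between 5 and 10 Mb. It was 186.7 to 205.8 between 10 and 20 Mb and 211.5 to 223.8 beyond 20 Mb. The part within 10 Mb was 0.517 times as dense as the rest, in all 4 libraries below 1. On 13q the same ratio was 1.27, on 22q 1.12 and on 14q 0.792. On 14q the first 2 Mb were nonetheless the densest class in the mean of either group (54.4 and 56.5), with 46.4 and 62.5 in the untreated libraries. For each of the 5 arms the 4 libraries lay on 1 side of 1 (exact sign-flip p = 0.125, the smallest possible). The ratios of 14q and 22q changed side when the split was set at 5 Mb, to log2 values of 0.03 and -0.07. On 13q the log2 ratio was -0.02 when reads were counted in place of regions. The directions of 15q and 21q held under every alternative run for this ratio.

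**Figure D3:**
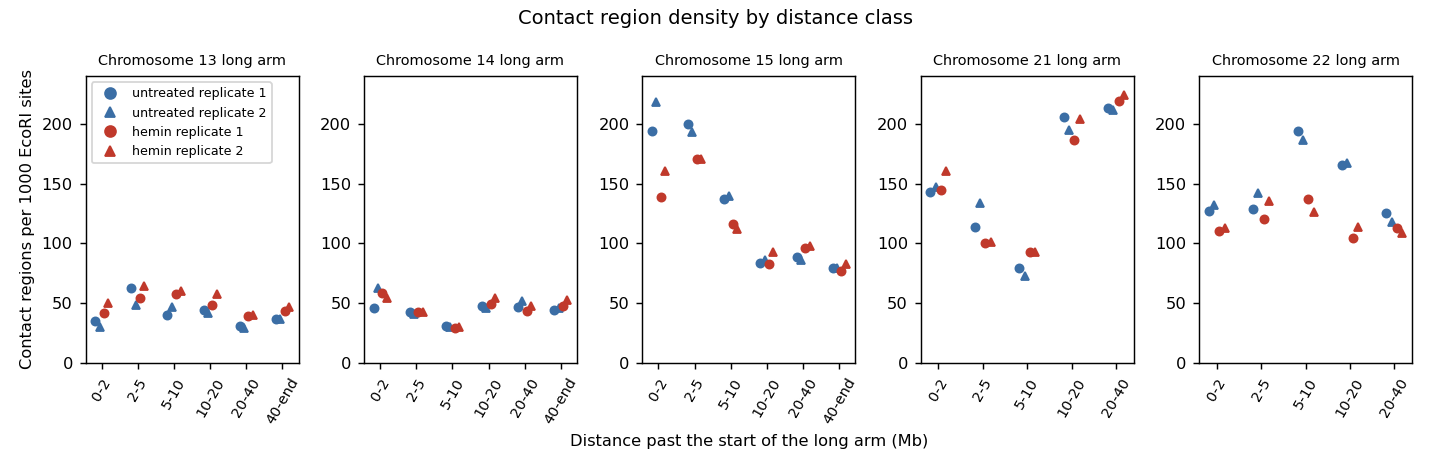
Contact regions per 1000 EcoRI sites (y axis) in classes of distance past the position that bounds each long arm (x axis, Mb), with 1 symbol per library. On 15q the untreated mean was 205.9 in the first class and 79.6 in the last, and on 21q the density was lowest at 5 to 10 Mb.

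Along 21q, 22q and 13q a few windows of 2 Mb stood far above the rest in both groups. On 21q the densest window lay 26 to 28 Mb from the boundary, with 474.1 and 474.1 regions per 1000 EcoRI sites in untreated and 476.0 and 493.3 in hemin libraries. The median window of this arm had 148.7. It holds 10 protein-coding genes, among them DSCAM, a cell adhesion receptor of neurons, the protease gene BACE2 and the interferon-induced MX1 and MX2. On 22q the densest window lay at 10 to 12 Mb. Its density was 461.0 and 472.1 in untreated libraries and 278.8 and 280.7 in hemin libraries, and the median window of 22q had 91.8. Among the densest windows of the 5 arms, this one had the largest difference between groups.

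On 13q the windows at 70 to 72 and 72 to 74 Mb stood out, the second with 147.9 and 160.2 in untreated and 181.3 and 165.5 in hemin libraries, against a median of 34.7. Its only protein-coding gene is GPC5, a glypican. A further peak lay at 60 to 62 Mb with 103.7 to 118.7 in all libraries. On 15q the densest window in the untreated mean was at 2 to 4 Mb and holds NPAP1, SNRPN, UBE3A and ATP10A of an imprinted region known for Prader-Willi and Angelman syndromes. It had 214.5 and 201.0 regions per 1000 sites in untreated libraries and 157.1 and 152.0 in hemin libraries. Few of its regions were given to these genes by the rule described below. Of 127 and 119 regions in untreated libraries, ATP10A was given 8 and 7 and UBE3A 2 and 3, while NPAP1 was given no read. The window at 0 to 2 Mb was nearly as dense, with an untreated mean of 205.9 beside 207.8. In hemin libraries the window at 4 to 6 Mb was the densest, with 175.2 and 173.5 against 139.8 in both untreated libraries. No window stood out in this way on 14q, where the densest by the group means, at the immunoglobulin heavy chain end of the arm, had 71.1 to 96.2 against a median of 44.4.

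Across the 163 windows of the 5 arms, untreated and hemin densities correlated with r = 0.931 (Pearson). The values were 0.966 for 21q, 0.966 for 22q, 0.916 for 13q, 0.812 for 15q and 0.487 for 14q, where the replicates of a group correlated with 0.887 and 0.892. These are descriptions over neighbouring windows, which share libraries and base composition. GC content correlated with density at r = 0.176 over the 163 windows, and at -0.670 over the 14 windows of 22q.

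**Figure D4:**
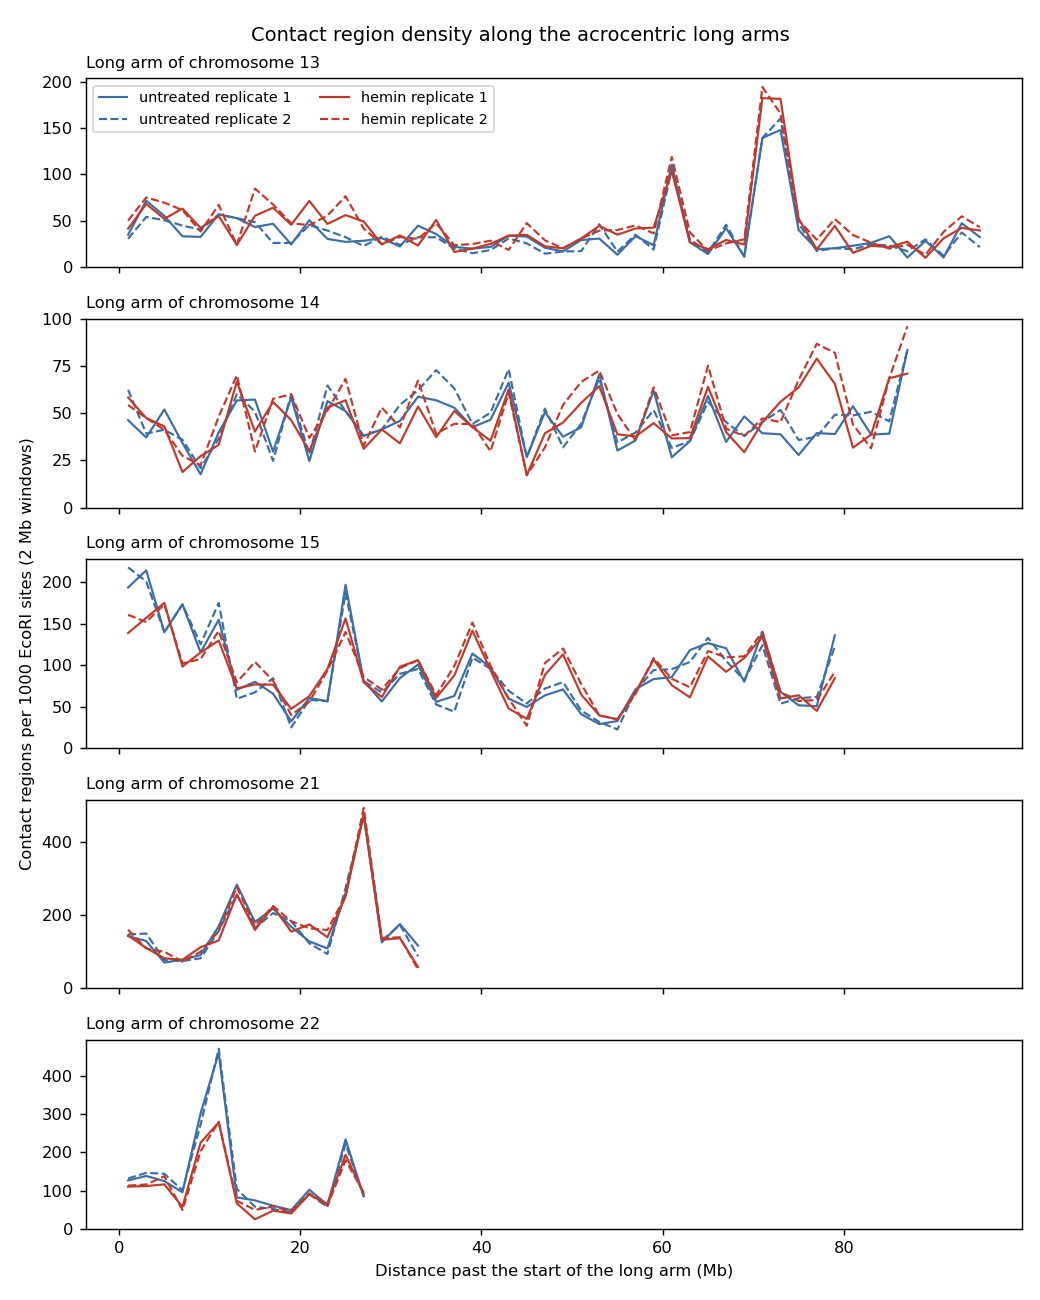
Contact regions per 1000 EcoRI sites in windows of 2 Mb (y axis) against the distance past the position that bounds each long arm (x axis, Mb). Each library has 1 line. Peaks at 26 to 28 Mb on 21q, 10 to 12 Mb on 22q and 70 to 74 Mb on 13q were present in all 4 libraries, with lower values after hemin on 22q.

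At the level of single regions the groups had little in common. In each library, 75.7% to 83.3% of the long-arm regions recurred, meaning that they shared at least 1 base with a region of the second library of the group. The range was 69.4% to 73.4% on the autosomes without rDNA. Of the regions that recurred, 88.3% to 89.4% overlapped no region of the other group, and they held 80.4% to 85.8% of the reads of the recurring regions. On the autosomes without rDNA these shares were 83.6% to 86.2% and 49.9% to 60.9%. By arm, the share found in 1 group was highest on 14q (92.7% to 93.9%) and lowest on 21q and 22q (82.8% to 86.1%). The mean share over the long arms was 76.7% when regions within 2.5 kb of each other counted as shared.

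After merging of overlapping regions, the long arms held 14532 distinct regions. Of these, 4660 were met in both untreated replicates and never after hemin, and 4464 in both hemin replicates and never before. All 4 libraries met 434. Such counts of merged regions are not given for the other autosomes and are not read as particular to the long arms. On the autosomes without rDNA, too, 83.6% to 86.2% of the recurring regions overlapped no region of the other group. The region near GPC5 printed above (459 kb away) had no read without hemin and 15222 and 16129 reads with it. That is at least 8557-fold higher after hemin, against a floor of 3 reads per library. The intron of KCNH5, a voltage-gated potassium channel, had none and then 5697 and 5972 (at least 3185-fold higher). The region that overlaps an exon of TLN2, a talin that links integrins to actin, had 0 and then 4220 and 4530 (at least 2388-fold higher).

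In the opposite direction, the region on chromosome 15, whose nearest coding gene AGBL1 lies 89.7 kb away, had 11401 and 12160 reads in untreated libraries and 0 in both hemin libraries (at least 2394-fold lower). The ADAM21 intron had 12229 and 13078 reads in untreated libraries and 2 and 2 in hemin libraries. A region that overlaps an untranslated part of TTC3, a ubiquitin ligase gene of 21q, had 6798 and 7053 reads and then 152 and 154. It was 27.6 times as high in untreated libraries. A CLDN14 intron had 480 and 464 and then 4977 and 4777. The ERG intron was the most even of the single-copy regions, with 1706, 1902, 683 and 791 reads, which is 144.2 ± 5.1 untreated and 96.5 ± 6.1 hemin reads per 1000000 reads outside the viewpoint window (SD, n = 2 each). All folds of regions are on this scale. In each of these regions the groups did not overlap. A further repeat-masked region of 13q, 52.8 kb from DACH1, was met in all 4 libraries with 1310, 2723, 2118 and 2261 reads, and its untreated replicates differed most.

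**Figure D5:**
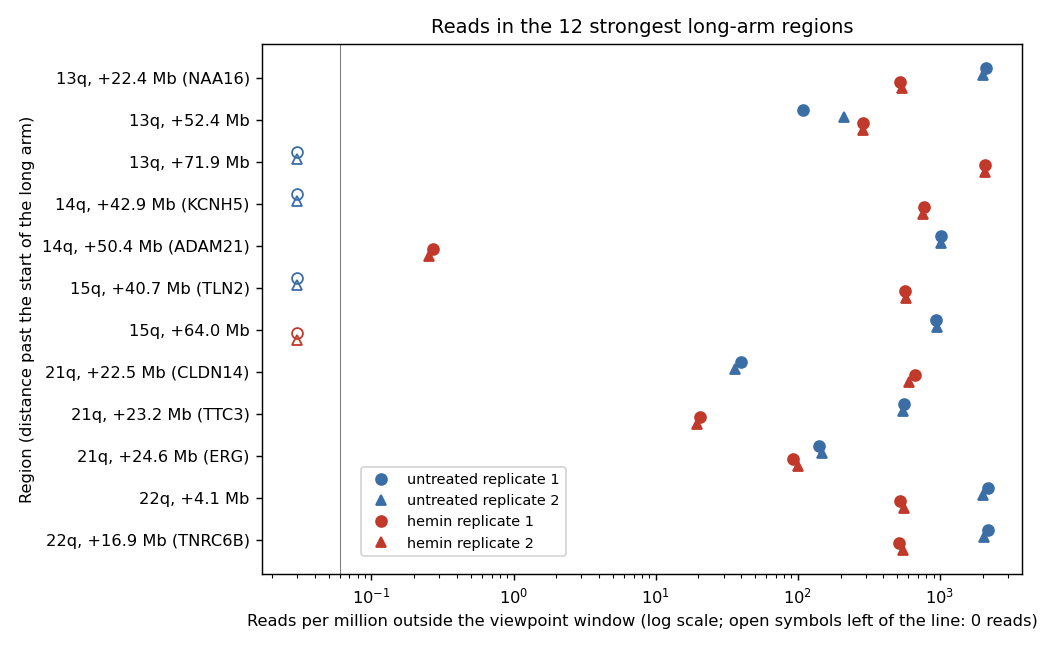
Reads per 1000000 reads outside the viewpoint window (x axis, log scale) in the 12 regions chosen as the strongest, with 1 symbol per library and open symbols for 0 reads. Regions are named by arm, distance past the position that bounds it and, where they lie in a gene, that gene. In 3 regions only the hemin libraries had reads, and in 1 only the untreated libraries.

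Reads were then compared in bins of 100 kb. On the long arms 2477 bins held at least 10 reads, and 899 were higher and 880 lower after hemin (edgeR quasi-likelihood test, Benjamini-Hochberg adjusted p under 0.05 over all bins). That is 36.3% and 35.5% of them, beside 37.1% and 31.3% of all 19382 bins. The shares of the long arms thus lay near those of the whole genome. By arm, 39.4% of the bins of 13q were higher and 31.6% lower, while on 22q 28.0% were higher and 45.3% lower. Of the called bins of the long arms, 45.9% had no read in 1 of the groups, with the lowest share on 21q (16.5%) and the highest on 13q (63.9%). The same share was 56.6% of the called bins of the whole genome and 58.8% on the autosomes without rDNA, so it was lower on the long arms. The median log2 difference was 0.09 on the long arms and 0.50 over all bins. It was 1.10 on 13q and -0.72 on 22q, or -0.64 with bins at 0 in 1 group set to their bound.

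The number of calls depended on the counting of reads. Where a region added 1 to a bin however many reads it had, 47 bins of the long arms were higher and 41 lower. For genes, counting in this way gave 0 and 0 calls by edgeR, and 216 and 218 genes had an unadjusted p under 0.05.

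A gene was given the reads of a region that, widened by 2.5 kb on each side, met no other gene. By this rule 53.2% to 55.4% of the long-arm regions had a gene. Among 1246 long-arm genes with at least 10 reads, 458 were higher and 457 lower after hemin, or 36.8% and 36.7%, beside 37.7% and 32.8% of all 8750 genes. Leaving out untreated replicate 1 or 2 lowered the count of lower genes to 303 and 300. Contacts of a gene are not its expression, which these files do not hold.

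Among the genes with the most reads were DSCAM on 21q, TNRC6B on 22q, and NAA16 and GPC5 on 13q. DSCAM (chr21:40010999-40847158) had 33658, 35308, 16636 and 17236 reads in untreated replicates 1 and 2 and hemin replicates 1 and 2, spread over 98, 101, 98 and 110 regions. Its normalized count was 1.46 times as high in untreated libraries (edgeR adjusted p = 0.001). GPC5 had 15792, 16845, 9259 and 8661 reads in 50 to 60 regions, and its lower count after hemin (edgeR adjusted p = 0.023) missed the threshold without either untreated library (0.091 and 0.106). The GPC5 call was also lost with RLE scaling (edgeR adjusted p = 0.057), with scaling to total reads (0.172) and with replicate number as a block (0.098). The same held with regions at most 50% repeat-masked (edgeR adjusted p = 0.090). In NAA16 and TNRC6B the shared repeat sequence held 100% and 99.1% of the reads of untreated replicate 1. With regions at most 50% repeat-masked TNRC6B was higher after hemin (log2 difference 3.57).

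The ends of the fold change were taken among genes with reads in every library and a mean normalized count of at least 100. The highest were CCDC122 (4, 2, 319 and 347 reads in untreated replicates 1 and 2 and hemin replicates 1 and 2), MPPED1 (11, 10, 1004 and 1097), KLHL33 (4, 4, 367 and 362) and GABPA (2, 4, 205 and 169). GABPA, on 21q, encodes the DNA-binding part of an ETS factor that binds the promoters of many respiratory genes, and its count was 87.9 times as high after hemin. The lowest were LINC02895 (784, 793, 2 and 2), UBR1 (1051, 1011, 8 and 4), ADARB1 (1930, 2007, 9 and 37) and LINC00458 (950, 975, 27 and 2). UBR1 is a ubiquitin ligase of the N-degron pathway and ADARB1 an RNA-editing adenosine deaminase. These 8 genes held 1 to 7 regions in a library. With replicate number as a block in the model, CCDC122, KLHL33 and GABPA missed the threshold (edgeR adjusted p = 0.062, 0.051 and 0.077). So did UBR1, ADARB1 and LINC00458 (edgeR adjusted p = 0.053, 0.077 and 0.112). LINC00458 missed the threshold without either untreated library (edgeR adjusted p = 0.107 and 0.106), and MPPED1 and ADARB1 missed it with regions at most 50% repeat-masked (0.739 and 0.794).

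Hemin is a form of heme, so genes of heme, iron and the red cell were listed. Of 11 such genes on the long arms, 7 had reads, 6 were tested, and 2 were higher and 4 lower after hemin. Over all genes tested, 37.7% were higher and 32.8% lower. BACH1, the heme-binding repressor of HMOX1, had 3167 and 3504 reads in untreated and 572 and 661 in hemin libraries. In hemin replicate 1, 1 region held 93.5% of its reads, and its log2 difference of -1.96 turned to 3.87 with regions at most 50% repeat-masked (edgeR adjusted p = 0.133). HMOX1, the heme oxygenase that breaks down heme, had 45 and 38 reads and then 0 and 0. It was at least 9.93-fold lower, and missed the threshold without either untreated library (edgeR adjusted p = 0.223 and 0.195). SPTB, the beta-spectrin of the red cell membrane skeleton, had 404 and 539 and then 0 and 0 (at least 112.3-fold lower). IREB2, an iron-sensing RNA-binding protein, had 722 and 728 and then 321 and 364. CYB5R3, which reduces cytochrome b5 and so keeps haemoglobin in its ferrous form, had 0 and 0 and then 256 and 211 (at least 109.0-fold higher), and NEO1, a receptor of the hepcidin pathway, had 103 and 113 and then 837 and 888. TSPO had 2, 4, 0 and 0 reads and was not tested. Apart from BACH1, each named gene of this list had at most 4 regions in a library. The median log2 difference of the list was -1.28, beside 0.48 over all genes tested. It is the midpoint of IREB2 (-0.60) and BACH1 (-1.96), and BACH1 turned direction as given above. The median is therefore not read as a shift of the list.

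Of 23 blood regulators and leukaemia genes, 9 had reads, and 4 were higher, 2 lower and 3 did not pass, beside 37.7% higher and 32.8% lower of all genes tested. RUNX1, a regulator of blood cell formation on 21q, had 10935 and 10095 reads in 45 and 38 regions of untreated libraries and 5384 and 7609 in 55 and 54 regions of hemin libraries (edgeR adjusted p = 0.328). ERG, an ETS factor of blood stem cells on the same arm, had 6997, 7956, 2359 and 2751 reads and was lower after hemin, while ETS2 had 222, 191, 0 and 0. Reads of TFDP1, the partner of the E2F cell cycle factors, of BCL11B, a T cell regulator, and of DICER1, the microRNA-processing enzyme, were found only in hemin libraries, with 501 and 553, 299 and 278, and 76 and 86. GABPA, given above, was the other higher gene. DICER1 turned to a log2 difference of -1.66 and ETS2 to 0.09 when reads were given to every gene met. Without either hemin library DICER1 missed the threshold (edgeR adjusted p = 0.053 and 0.053), as did ETS2 without untreated replicate 1 (0.057). FLT3 had 0, 0, 5 and 78 reads and TCF12 had 415, 493, 454 and 422, and neither passed. The list's median log2 difference was 6.39, or 4.23 with genes at 0 in 1 group set to their bound, beside 0.48 over all genes. The first is the value of GABPA alone and the second the bound of FLT3, which was not called. TFDP1, BCL11B, DICER1 and FLT3 met the read filter through hemin reads alone, and ETS2 through untreated reads alone. The medians are therefore not read as a shift of the list.

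Of 19 genes of ribosome production on the long arms 2 had reads and none passed, while 1383 of all 7540 long-arm genes had reads. POLR1D, a subunit of RNA polymerases I and III, had 171, 35, 397 and 439 reads (edgeR adjusted p = 0.099). It passed without untreated replicate 1 (0.004) and without untreated replicate 2 (0.008). RRP1B, a ribosome biogenesis factor, had 114 reads in hemin replicate 2 alone. Of 12 imprinted genes 4 had reads. ATP10A had 1578, 1694, 976 and 1034 reads and was called lower, a call that was lost without any 1 of the libraries (edgeR adjusted p from 0.060 to 0.108) and turned to 0.01 with scaling to total reads. MAGEL2 had 0, 0, 128 and 154 reads and was higher. UBE3A had 155, 181, 49 and 0 (edgeR adjusted p = 0.391) and passed without hemin replicate 1 (0.006) or 2 (0.036).

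Families of near-identical copies are uncertain, since their reads may be placed at any copy. Their counts stand beside 37.7% higher and 32.8% lower of all genes tested, and none is read as particular to a family. Among 22 tested GOLGA6 and GOLGA8 genes, 3 were higher and 12 lower. Of 14 immunoglobulin heavy chain segments at the end of 14q, 4 were higher and 7 lower, and of 5 T cell receptor segments 2 were higher and 1 lower. Olfactory receptor genes gave 4 higher and 4 lower of 10 tested, keratin-associated protein genes 3 and 4 of 11, and LINC transcripts 35 and 44 of 116. No POTE gene lay on the long arms.

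Long protein-coding genes carried more of the contacts than their share of EcoRI sites. The 36 genes of at least 500 kb hold 9.06% of the EcoRI sites of the long arms and took 13.2%, 13.1%, 12.3% and 12.5% of the regions in untreated replicates 1 and 2 and hemin replicates 1 and 2. Density inside them was 1.40 to 1.53 times that of the rest of the long arms. On the autosomes without rDNA the same ratio was 0.789 to 0.874. The ratio was higher on the long arms in 4 of 4 libraries, by 1.76 times (exact sign-flip p = 0.125, the smallest possible). The 2 sides are unlike, since the other autosomes were taken whole. Their density outside any gene was 1.33 to 1.58 times the rest, beside 0.903 to 1.05 on the long arms. A few genes also weighed heavily. In untreated replicate 1, 856 regions lay in long genes, and DSCAM was given 98, GPC5 50 and SYN3 50. By arm it was 2.11 to 2.75 on 22q and 1.06 to 1.45 on 14q. Of these genes 35 had reads and 34 were tested, 10 higher and 17 lower, with a median log2 difference of -0.26. Over all genes tested 37.7% were higher and 32.8% lower, with a median of 0.48, and over the long-arm genes the median was 0.23. Introns of coding genes in general were hit at 0.967 to 1.05 times the density outside them on the long arms and at 0.691 to 0.774 times on the autosomes without rDNA. Exons and untranslated parts were hit less often on both, with ratios of 0.757 to 0.822 and 0.535 to 0.712.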

How the data were processed

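The 4 single-replicate files held a count of reads for each contact region, deposited by the authors without normalization. Per the labels and the methods, the authors trimmed adapters and primer sequence with cutadapt 3.5, aligned reads to hg38 with BWA 0.7.17-r1188 and handled alignments with SAMtools 1.14. No removal of duplicates or filter on mapping quality is stated. Their mean coverage signal was not used. A further deposited signal per group, for regions left after a repeat filter, served only to mark regions. Region sequences of the long arms were identical to hg38 in 100% of cases. Genes came from GENCODE release 44.

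EcoRI sites were counted on hg38. Densities were set against the sites, and shares against reads outside the viewpoint window. Bins of 100 kb and genes with at least 10 reads were tested over the whole genome with the quasi-likelihood test of edgeR 4.0.16 (TMM, R 4.3.3), a test that was tried on simulated data first, and p-values were adjusted by Benjamini-Hochberg. DESeq2, which the study used in another version, was run in version 1.42.0 as an alternative. Deviations of same-numbered libraries from their group mean correlated at -0.000618 over bins and 0.00497 over genes. Of the tested features, 9712 of 19382 bins and 4929 of 8750 genes had no read in 1 group and so no deviation there. These correlations therefore cannot decide whether the replicate numbers pair the samples. The main tests treated the libraries as unpaired.

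The members, gene lists and tests were chosen with earlier results of these data known. Named genes were the 4 highest and 4 lowest called log2 differences, the 5 highest counts and list members with reads in both replicates of a group. A gene and a sequence that these rules chose are not reported here. Where a group had 0 reads, a floor of 3 reads per library was used. The reads carried no molecular identifiers, and PCR copies are not separate molecules: floors cover counting error only.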

Additional observations from a re-analysis of the deposited data

How the results depend on the processing

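Alternatives changed the regions used, denominator, depth, scaling, filters, bin size and each library in turn. Those with regions at most 50% repeat-masked, with GC classes and without the shared repeat sequence were chosen after seeing the data. Of 395 values recomputed for the comparisons of the report, 342 kept their direction and size, 37 changed direction and 16 moved. The cause of the changes was not tested. Values below are hemin minus untreated unless stated.

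The long-arm read share turned to -0.0676 percentage points with regions holding an EcoRI site, to -0.175 with the chromosome 21 short arm out of the denominator, and ran from -0.0204 to 0.108 with 1 library left out. The share of 15q turned to 0.0593 without the 10 regions with the most reads. The share of regions turned to -0.632 with regions of at least 10 reads and -1.15 with regions at most 50% repeat-masked.

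For the log2 density ratio near over far, the mean of libraries turned to -0.0152 on 13q (reads in place of regions), and with a split at 5 Mb to 0.0256 on 14q and -0.0719 on 22q. Its group difference turned on 13q to -0.148 (EcoRI site), -0.00646 (at most 50% repeat-masked), -0.119 (split at 5 Mb) and -0.00574 (20 Mb), with -0.0127 to 0.0315 on leaving out a library. On 14q it turned to 0.0172 (at least 10 reads), 0.110 (reads) and 0.0103 (20 Mb). On 21q it turned to -0.132 (repeat-masked), -0.157 (5 Mb) and -0.0701 (20 Mb), with -0.0357 to 0.0667 on leaving out a library, and on 22q to -0.343 (20 Mb).

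Against the other autosomes, the mean log2 ratio turned to 0.0391 on 13q and 0.152 on 14q (repeat-masked), and to 0.0827 on 14q (at least 10 reads). The group difference of all 5 arms turned to -0.145 (at least 10 reads), -0.0402 (thinned), -0.174 (repeat-masked), -0.0605 (reads) and -0.0247 (GC), that of 14q to -0.0820 (at least 10 reads), and that of 21q to -0.185, -0.0514, -0.167, -0.0892 and -0.0725 under the same settings as for all 5.

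Recurring regions were found in 1 group in 76.7% when 2.5 kb counted as shared, and 86.0% of regions of at least 10 reads recurred. Bins of 1 Mb gave 113 higher and 156 lower. With each region counted once, edgeR called 47 and 41 bins and 0 and 0 genes (unadjusted p under 0.05 in 216 and 218). With reads given to every gene met, 760 and 778 genes were called. Leaving out a library gave 758 to 919 bins higher and 628 to 982 lower, and 374 to 447 genes higher and 300 to 486 lower. DESeq2 called 1010 and 962 bins and 504 and 485 genes. The median log2 difference over all bins was 0.50 with TMM and 0.71 with scaling to total reads.

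The labels number the replicates, and whether the numbers pair the samples could not be decided here. With the replicate block, edgeR called 0 and 0 bins (unadjusted p under 0.05 in 629 and 630) and 23 and 42 genes.

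Among genes, log2 differences turned with reads given to every gene met for DICER1 (-1.66), ETS2 (0.0874), ENOX1 (0.0755) and HS6ST3 (0.29), and with scaling to total reads for ATP10A (0.0102), NRXN3 (0.10) and KCNJ6 (0.0132). With regions at most 50% repeat-masked they turned for TNRC6B (3.57), BACH1 (3.87), NRXN3 (0.18), GPHN (1.03), HS6ST3 (0.0495) and THSD4 (-0.29). DESeq2 called FLT3, TCF12 and POLR1D, which edgeR did not.

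Depth limits these values: hemin libraries held fewer reads, and 8.56% to 11.3% of the long-arm regions of a library rested on 1 read.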
